A study of Homo sapiens and Mus musculus with 41 samples.

Results

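The cornified envelope is the cross-linked protein shell that replaces the plasma membrane of a dying squamous cell, in skin and in stratified linings such as the oesophagus. Small proline-rich proteins and involucrin are its building blocks, and transglutaminases stitch them together while proteases mature the cell. These genes are known as markers of the suprabasal layers of squamous epithelium, and carcinomas can switch them on outside that setting. The 10 genes described here are SPRR1A, SPRR1B, SPRR2A, SPRR2D and SPRR3, which encode small proline-rich envelope precursors, and IVL, which encodes the precursor involucrin. They also include TGM1, a membrane-bound transglutaminase, CASP14, a caspase of terminal keratinocyte differentiation, CALML5, a calcium-binding calmodulin-like skin protein, and TMPRSS11D, a serine protease of airway and squamous epithelia. They were found by symbol, ignoring case, among 31206 gene symbols in 4 tables, and all 10 were in the 3 human tables of 23368 symbols each. The mouse table, with 23337 symbols, held 8 of them and had no row named Sprr2a or Calml5.

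The study measured RNA by sequencing in 41 libraries of cultured, GFP-expressing tumour cells from 4 models. HCC1954 is a human breast carcinoma line with raised HER2, MDA-MB-231 a human breast carcinoma line labelled as lacking ER, PR and HER2, PC9 a human lung adenocarcinoma line with raised EGFR, and LLC a Lewis lung carcinoma line of the C57/B6 mouse. Lep cells are the leptomeningeal derivative of each line, BrM cells the brain metastatic derivative, Int cells an intermediate derivative, and Par cells the parental line. HCC1954 had 3 Lep and 2 BrM libraries, MDA-MB-231 and PC9 each 2 Lep and 3 BrM, LLC 3 of both, and every model 2 Int and 3 Par libraries. According to the protocols in the labels, cells were washed out of the leptomeningeal space of mice, grown until the culture was uniformly GFP-positive and passaged 3 times, with no separate account for BrM cells, so the values describe cells in culture and not cells in the meninges. Per the series' design text the Par replicates are technical and the Int and Lep replicates mix biological and technical ones, so every error and p-value measures only the spread between these libraries. Values are the authors' normalized counts, in which each library's reads are scaled by a single size factor, and libraries held 25330801 to 67367833 reads in HCC1954, 23508951 to 110830546 in MDA-MB-231, 16792027 to 38432963 in PC9 and 18029707 to 67939274 in LLC. The tables were normalized separately and the values are not divided by gene length, so levels are compared within 1 gene and 1 model only.

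The 10 genes were chosen with results of these same tables known. Their levels and fold changes are therefore a description with no test. A gene is called past the call rule when limma, fitted over all genes of a table, gave a Benjamini-Hochberg adjusted p below 0.05 and a log2 fold change of at least 1 in size; the share of all tested genes past the same rule is given with the first count in each comparison. In bulk RNA, fewer cells expressing a gene and less RNA per cell cannot be told apart.

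Of the 10 genes, 6 lie on human chromosome 1, in the order IVL, SPRR1A, SPRR3, SPRR1B, SPRR2D and SPRR2A. TMPRSS11D is on chromosome 4, CALML5 on chromosome 10, TGM1 on chromosome 14 and CASP14 on chromosome 19. RefSeq promoter windows (build GRCh38.p14, the 250 bases before each annotated start) were matched for 8 of the 10, and SPRR2D and TGM1 are not shown. The windows of 4 small proline-rich genes whose levels moved together, and of IVL, their neighbour whose level did not, are shown because all 5 hold the AP-1 element TGACTCA or its reverse complement TGAGTCA, the site known to bind FOS and JUN family dimers. They lie at chr1:152983831-152984080 (plus strand) for SPRR1A, chr1:153030953-153031202 (plus) for SPRR1B, chr1:153057513-153057762 (minus) for SPRR2A, chr1:153001499-153001748 (plus) for SPRR3 and chr1:152908296-152908545 (plus) for IVL. Each is written 5′ to 3′ on the gene's strand, ends at the base before the start, and has the AP-1 element in capitals.
SPRR1A: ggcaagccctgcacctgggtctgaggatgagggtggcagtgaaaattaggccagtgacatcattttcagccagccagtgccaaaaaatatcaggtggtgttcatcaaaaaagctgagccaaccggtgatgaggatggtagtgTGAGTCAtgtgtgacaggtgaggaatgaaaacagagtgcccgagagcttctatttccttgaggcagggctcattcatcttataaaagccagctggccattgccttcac
SPRR1B: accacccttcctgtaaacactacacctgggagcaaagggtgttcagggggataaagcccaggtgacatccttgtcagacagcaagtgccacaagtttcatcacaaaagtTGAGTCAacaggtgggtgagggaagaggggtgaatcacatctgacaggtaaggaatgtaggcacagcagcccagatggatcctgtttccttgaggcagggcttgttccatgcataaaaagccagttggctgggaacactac
SPRR2A: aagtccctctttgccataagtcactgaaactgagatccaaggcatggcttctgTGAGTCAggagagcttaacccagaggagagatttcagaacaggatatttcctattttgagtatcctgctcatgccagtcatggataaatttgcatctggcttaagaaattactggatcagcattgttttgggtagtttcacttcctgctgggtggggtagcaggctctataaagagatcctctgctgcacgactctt
SPRR3: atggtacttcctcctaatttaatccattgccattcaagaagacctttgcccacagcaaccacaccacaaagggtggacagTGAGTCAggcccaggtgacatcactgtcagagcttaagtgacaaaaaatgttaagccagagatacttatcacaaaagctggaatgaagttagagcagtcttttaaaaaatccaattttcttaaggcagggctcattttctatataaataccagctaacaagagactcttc
IVL: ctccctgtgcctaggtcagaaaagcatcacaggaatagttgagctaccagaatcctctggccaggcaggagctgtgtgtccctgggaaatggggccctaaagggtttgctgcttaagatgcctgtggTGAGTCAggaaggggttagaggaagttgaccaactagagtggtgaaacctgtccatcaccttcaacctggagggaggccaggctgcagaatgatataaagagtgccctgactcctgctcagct
The element began 108 bases before the start in SPRR1A, 141 in SPRR1B, 197 in SPRR2A, 170 in SPRR3 and 123 in IVL. CASP14 (chr19:15049230-15049479, plus strand) also held it, 190 bases before its start, so 6 of the 8 windows had it on either strand, against 1476 of 35116 human promoter windows of the same length (4.203%). Of these 6 windows, 4 belong to 1 gene family and lie with IVL close together on chromosome 1. They are not independent of each other, so no enrichment is read from the shares. It was not among the letters of the CALML5 and TMPRSS11D windows. The Ets core AGGAAG, searched on both strands, was in 4 of the 8 windows and in 28.71% of all windows, and the box CCCACCC in 2 of the 8 and in 18.16%. Matches of different motifs shared letters in IVL alone, where an Ets core and the AP-1 element have 1 base in common. A match of letters describes the window and is not a measured binding site.

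Small proline-rich genes were highest in Lep cells of HCC1954, intermediate in Int cells and lowest in BrM or Par cells. SPRR2A had 2590.3, 2841 and 2508 normalized counts in Lep libraries, 106 and 109.6 in BrM, 469.8 and 598 in Int, and 109, 113 and 101 in Par. Every Lep library lay above every Int library, every Int library lay above BrM and Par, and BrM and Par overlapped. The log2 fold change of SPRR2A was 4.61 ± 0.09 (SE) in Lep against Par and 2.32 ± 0.10 in Lep against Int. SPRR1A had 154, 175 and 159 normalized counts in Lep, 7.77 and 4.17 in BrM, 56.9 and 79.7 in Int, and 29.6, 29.6 and 19.8 in Par. SPRR1B had 673, 844 and 658 in Lep, 29.8 and 28.2 in BrM, 442 and 528 in Int, and 104, 107 and 75.1 in Par. For both SPRR1 genes the 4 groups were ordered Lep, Int, Par and BrM with no overlap between libraries. Their log2 fold changes in Lep against Par were 2.60 ± 0.23 for SPRR1A and 2.92 ± 0.14 for SPRR1B, and in BrM against Par they were -2.00 ± 0.26 and -1.67 ± 0.16.

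SPRR2D and SPRR3 had the same order in HCC1954. SPRR2D had 300.2, 355 and 333 normalized counts in Lep, 14.2 and 8.35 in BrM, 65.8 and 79.7 in Int, and 27.4, 29.6 and 22.4 in Par. SPRR3, a precursor abundant in the lining of the oesophagus, had 201, 249.8 and 279 in Lep, 7.77 and 2.09 in BrM, 64.8 and 59.3 in Int, and 12.1, 20.1 and 19.8 in Par. Neither gene had overlapping groups. The log2 fold changes in Lep against Par were 3.59 ± 0.19 for SPRR2D and 3.76 ± 0.32 for SPRR3. In BrM against Par they were -1.19 ± 0.22 for SPRR2D and -1.78 ± 0.36 for SPRR3, and both fell short of the call rule with 10 in place of 1 added before the logarithm (-0.79 for SPRR2D and -0.88 for SPRR3) and with quantile normalization (-0.63 for SPRR2D and -0.997 for SPRR3), as did SPRR2D without BrM replicate 2 (-0.84). The SPRR2 genes are near copies of each other: 32.73% of all 50-base windows of the longest SPRR2A transcript and 26.76% of those of SPRR2D also occur in another SPRR2 gene, so how reads were split among them is uncertain. The share was 11.31% for SPRR1A and 4.378% for SPRR1B, each with the other, and 0 for SPRR3, IVL, TGM1, CALML5 and TMPRSS11D.

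**Figure D1:**
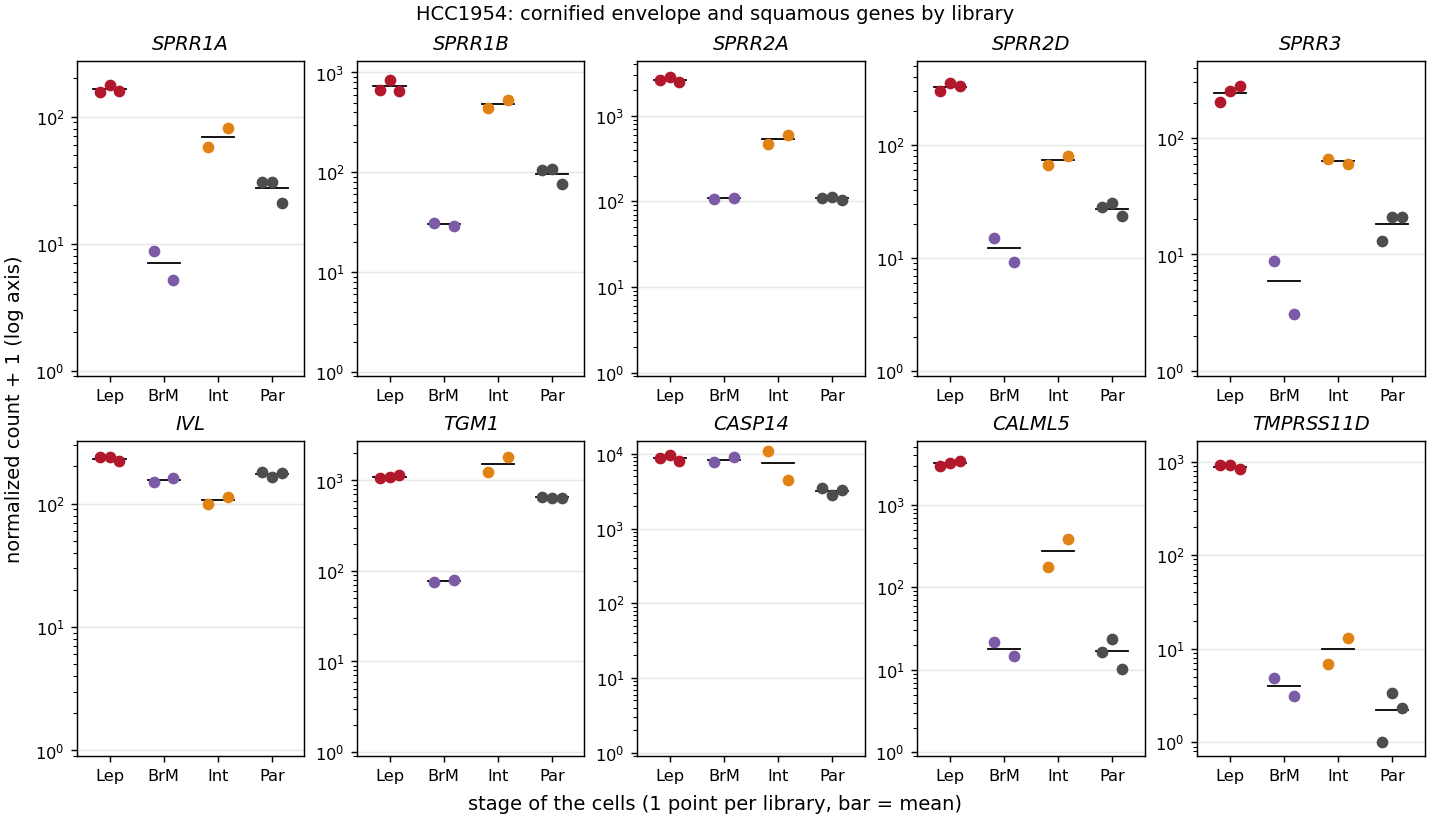
Normalized count plus 1 (log axis) of the 10 genes in the 10 HCC1954 libraries, grouped as Lep, BrM, Int and Par; points are libraries and bars are group means. The 5 small proline-rich genes stand highest in Lep and next in Int, IVL and CASP14 vary little by comparison, and TGM1 is highest in Int and lowest in BrM.

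The other precursor, IVL, and the enzyme that links precursors, TGM1, had other orders in HCC1954. IVL had 236, 237 and 219 normalized counts in Lep, 149 and 159.6 in BrM, 98.0 and 113 in Int, and 179, 162 and 175 in Par. The Lep libraries lay above Par, Par above BrM and BrM above Int, but the log2 fold change in Lep against Par was 0.42 ± 0.10, below the size the call rule asks for. TGM1 had 1059, 1095 and 1156 in Lep, 75.1 and 79.3 in BrM, 1253 and 1802 in Int, and 653, 645 and 646 in Par. Its groups were ordered Int, Lep, Par and BrM without overlap. The log2 fold change of TGM1 was 0.77 ± 0.10 in Lep against Par, -3.05 ± 0.11 in BrM against Par and 1.21 ± 0.11 in Int against Par, which was 0.95 without Int replicate 2 and then below the call rule.

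CALML5 and TMPRSS11D had the largest gaps between Lep and the other groups of HCC1954. CALML5 had 2991, 3232 and 3443 normalized counts in Lep, 20.7 and 13.6 in BrM, 173 and 382 in Int, and 15.4, 22.5 and 9.22 in Par. Lep stood above Int, Int above the other groups, and BrM and Par overlapped; the log2 fold change was 7.67 ± 0.30 in Lep against Par and 4.03 ± 0.33 in Int against Par. TMPRSS11D had 913, 910.4 and 825 in Lep, 3.88 and 2.09 in BrM, 5.79 and 12.1 in Int, and 0, 2.37 and 1.32 in Par. Since the 3 Par libraries held 3 TMPRSS11D reads in all, the ratio of Lep to Par was 741.7 with a 95% counting interval of 253.5 to 3599, and that of Int to Par was 7.489 (2.355 to 38.11). TMPRSS11D thus passed the filter on low values (at least 10 in at least 2 libraries) through Lep and 1 Int library. CASP14 was already abundant in the parental line, with 8677, 9652 and 8111 in Lep, 7785 and 8957 in BrM, 10773 and 4514 in Int, and 3495, 2806 and 3256 in Par. All derivative libraries of CASP14 lay above Par, while Lep, BrM and Int overlapped; the log2 fold changes against Par were 1.47 ± 0.22 in Lep, 1.40 ± 0.24 in BrM and 1.14 ± 0.24 in Int, the last 0.51 and below the call rule without Int replicate 1.

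In HCC1954 all 10 genes passed the filter. In Lep against Par 8 of the 10 were past the call rule as higher, all but IVL and TGM1, and none as lower, while 13% of the 15561 genes tested were called higher and 13.8% lower. In BrM against Par 1 gene (CASP14) was past it as higher and 5 (SPRR1A, SPRR1B, SPRR2D, SPRR3 and TGM1) as lower, with 9.63% of all tested genes called higher and 14% lower. In Int against Par 9 were past it as higher, all but IVL, with 6.6% of all genes called higher. Lep against Int gave 7 as higher, with 11.7% of all genes, and Lep against BrM gave 8, with 10.5%. With quantile normalization the Lep against Int calls of IVL (0.77) and SPRR1A (0.84) were lost. With 10 added before the logarithm the Int against Par call of TMPRSS11D (0.74) was lost. The members were chosen on contrasts of these tables, so nothing is read from these counts. Comparisons that share the Par libraries, or the Lep libraries, share their error.

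**Figure D2:**
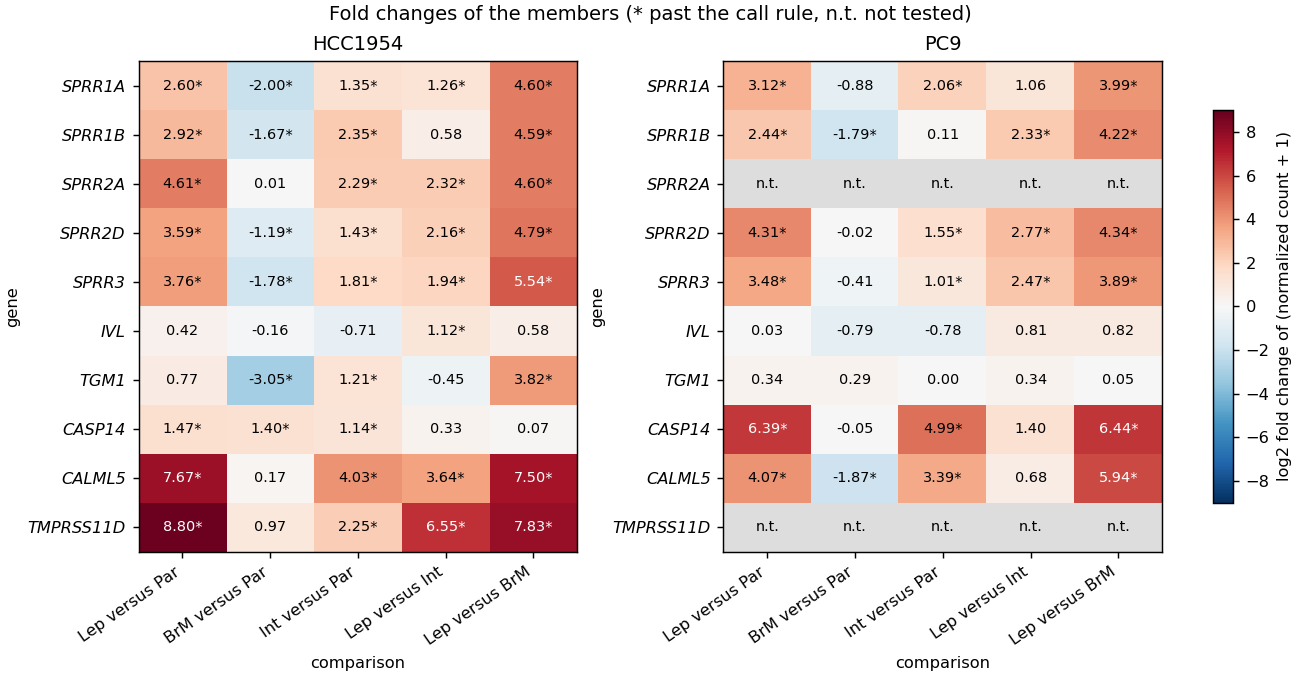
Log2 fold changes of the 10 genes (rows) in 5 comparisons (columns) for HCC1954 (left) and PC9 (right), with the first-named group over the second; an asterisk marks values past the call rule and n.t. genes not tested. Lep against Par and Lep against BrM are red in most rows of both models, IVL is past the call rule in HCC1954 Lep against Int alone (1.12), and fitted values of genes with 3 reads or fewer in a group, such as TMPRSS11D in HCC1954 Par, depend on the added 1 and are not bounds.

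PC9, a lung adenocarcinoma line, expressed a narrower set. SPRR1A had 191 and 669 normalized counts in Lep, 23.5, 21.0 and 20.2 in BrM, 196 and 150.0 in Int, and 41.7, 48.9 and 32.4 in Par. Lep replicate 1 lay among the Int libraries and Lep replicate 2 well above them, all of these lay above Par, and Par lay above BrM. SPRR1B had 741 and 1085 in Lep, 42.4, 59.1 and 41.4 in BrM, 218 and 145 in Int, and 164, 164 and 166 in Par. Lep stood above the rest, Int spanned Par, and BrM was lowest. SPRR3 had 415 and 856 in Lep, 36.5, 36.8 and 45.3 in BrM, 104 and 109.8 in Int, and 51.5, 44.0 and 63.5 in Par, with overlap between BrM and Par alone. The log2 fold changes in Lep against Par were 3.12 ± 0.38 for SPRR1A, 2.44 ± 0.21 for SPRR1B and 3.48 ± 0.26 for SPRR3, and in BrM against Par only that of SPRR1B, -1.79 ± 0.19, was past the call rule among these 3.

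The SPRR2 genes were scarce in PC9. SPRR2D had 56.5 and 31.8 normalized counts in Lep, 1.18, 1.31 and 0.963 in BrM, 5.03 and 5.74 in Int, and 1.23, 3.66 and 0 in Par. It passed the filter through Lep alone, and Lep to BrM had a ratio of 39.67 (95% counting interval 13.24 to 195.2). In Lep against Int its log2 fold change, 2.77 ± 0.67, was past the call rule. This call was lost with no filter on low values, with DESeq2 (3.04), with the 2 groups alone and with the replicate block. It was also lost on leaving out Int replicate 1 (2.69) or Int replicate 2 (2.85). Its log2 fold change in Int against Par, 1.55 ± 0.61, fell short of the call rule under 10 alternatives, among them edgeR (1.62), DESeq2 (1.68) and leaving out Int replicate 1 (1.63) or Par replicate 3 (0.98). SPRR2A, not tested in PC9, had 3.67 and 15.9 in Lep, 0, 2.63 and 0.963 in BrM, 3.77 and 3.28 in Int, and 2.45, 0 and 0 in Par, a ratio of Lep to Par of 11.13 (2.764 to 97.18). TMPRSS11D was at 0 in all 10 PC9 libraries.

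CASP14 and CALML5 in PC9 were high in both Lep and Int. CASP14 had 417 and 624 normalized counts in Lep, 2.35, 5.25 and 8.67 in BrM, 132 and 279 in Int, and 8.58, 3.66 and 4.05 in Par. CALML5 had 102 and 107 in Lep, 1.18, 1.31 and 0 in BrM, 61.0 and 68.8 in Int, and 7.36, 4.89 and 4.05 in Par. For both genes Lep lay above Int and Int above the other groups, with log2 fold changes in Lep against Par of 6.39 ± 0.46 for CASP14 and 4.07 ± 0.41 for CALML5. BrM and Par overlapped for CASP14, whereas every BrM library of CALML5 lay below Par, a ratio of 0.1379 (95% counting interval 0.01511 to 0.6092) on 2 reads in BrM and 13 in Par. In HCC1954 the BrM libraries of CASP14 had overlapped Lep instead, and the difference between the models was not tested.

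IVL and TGM1 were not past the call rule in any of the 5 comparisons of PC9. IVL had 38.9 and 53.5 normalized counts in Lep, 20.0, 32.8 and 25.0 in BrM, 29.6 and 22.1 in Int, and 52.7, 40.3 and 41.9 in Par. TGM1 had 129.8 and 153 in Lep, 127, 152 and 131 in BrM, 113 and 109.8 in Int, and 110.4, 118 and 105 in Par. Lep and Par overlapped for IVL, Lep and BrM for TGM1, and the log2 fold changes in Lep against Par were 0.03 ± 0.27 for IVL and 0.34 ± 0.14 for TGM1. For IVL, Lep lay above BrM and Int, and both of these lay below Par. Its log2 fold changes were 0.81 ± 0.29 in Lep against Int and 0.82 ± 0.27 in Lep against BrM, which without Lep replicate 1 were past the call rule at 1.04 each, -0.79 ± 0.24 in BrM against Par and -0.78 ± 0.27 in Int against Par.

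Of the 10 genes 8 were tested in PC9. In Lep against Par 6 were past the call rule as higher, with 6.65% of the 14475 genes tested called higher, and 5 or 6 when any single library was left out. In BrM against Par 2 (SPRR1B and CALML5) were past it as lower, with 3.1% of all genes. Int against Par gave 5 as higher, with 6.24% of all genes, Lep against BrM gave 6, with 7.83%, and Lep against Int gave 3 (SPRR1B, SPRR2D and SPRR3), with 0.228%. The Int against Par count was 3 to 4 with 1 library left out, 3 without Int replicate 2. The Lep against Int count was 5 without Lep replicate 1 and 0 in a fit of the 2 groups alone, where the log2 fold changes were as in the full fit (2.33 for SPRR1B, 2.77 for SPRR2D and 2.47 for SPRR3).

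**Figure D3:**
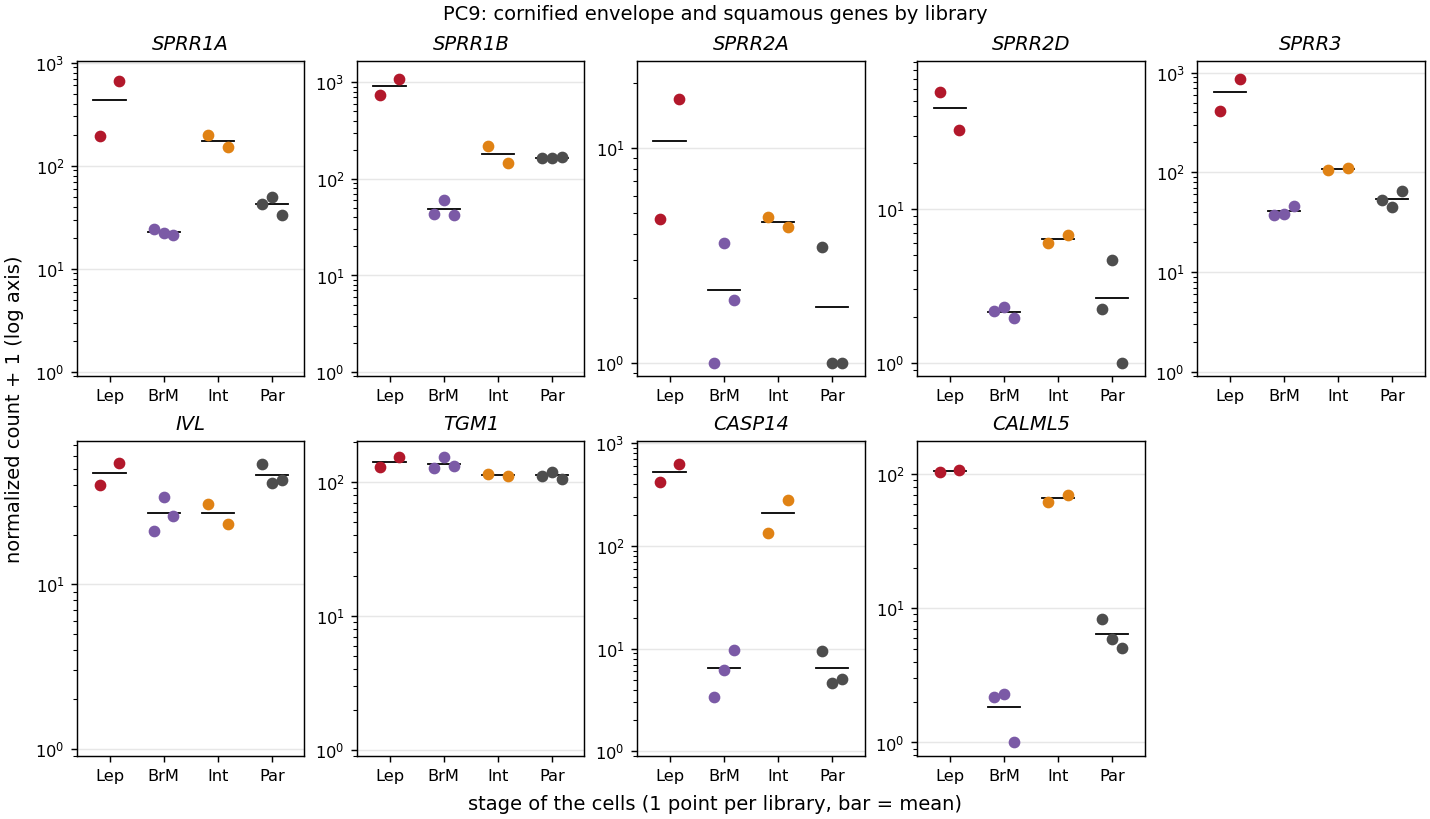
Normalized count plus 1 (log axis) of 9 of the genes in the 10 PC9 libraries, grouped as Lep, BrM, Int and Par; points are libraries, bars are group means, and TMPRSS11D, at 0 throughout, is left out. CASP14 and CALML5 separate Lep and Int from BrM and Par, SPRR1B and SPRR3 separate Lep from the rest, and IVL and TGM1 have no value past the call rule.

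In MDA-MB-231 only TGM1 was expressed above the filter. It had 79.5 and 146 normalized counts in Lep, 116, 133 and 123 in BrM, 66.0 and 65.9 in Int, and 87.7, 110.2 and 118 in Par. The Int libraries lay below all others, Lep overlapped BrM and Par, and the log2 fold changes were 0.05 ± 0.29 in Lep against Par and -0.66 ± 0.29 in Int against Par, neither past the call rule. No member was past it in any of the 5 comparisons, where the share of the 15106 genes tested called in either direction was 0.0662% in Lep against Par, 0.45% in BrM against Par, 6.94% in Int against Par, 0.159% in Lep against Int and 0.827% in Lep against BrM. IVL, SPRR1A and SPRR1B were at 0 in all 10 libraries, and no other member exceeded the 6.30 normalized counts of TMPRSS11D in 1 BrM library. TMPRSS11D had 0 and 0.747 normalized counts in Lep, 4.29, 1.54 and 6.30 in BrM, 2.62 and 3.47 in Int, and 1.01, 0 and 1.62 in Par. Both Lep libraries of TMPRSS11D lay below Int and BrM, with 1 read in Lep and 13 in Int, a ratio of 0.1288 (95% counting interval 0.003031 to 0.8575); no replicate test was made at these levels.

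In the mouse model LLC only Sprr1a passed the filter. It had 67.7, 88.2 and 61.8 normalized counts in Lep, 2.54, 0 and 3.29 in BrM, 17.0 and 9.0 in Int, and 24.2, 13.9 and 14.3 in Par. Lep lay above every other library, BrM below, and Int overlapped Par; the log2 fold change was 2.02 ± 0.52 in Lep against Par and -2.85 ± 0.52 in BrM against Par. Both were past the call rule, where 8% of the 13494 genes tested were called higher in Lep and 15.1% lower in BrM. Its log2 fold change was also past the rule in Lep against Int (2.44, with 8.47% of all genes called higher) and Lep against BrM (4.88, with 11.1%), but not in Int against Par (-0.42, with 11.5% called in either direction). Without Int replicate 2 the call in Lep against Int was lost, at a log2 fold change of 2.02. Casp14, Sprr2d, Sprr3 and Tmprss11d were listed at 0 in all 11 libraries, and Tgm1 did not exceed 7.67.

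A second mouse precursor gene, Sprr1b, was above 0 in 3 LLC libraries and abundant in 1 of them. Lep replicate 2 had 165 normalized counts of Sprr1b, from 129 reads, against 7.67 in Lep replicate 1 and 0 in Lep replicate 3. The BrM libraries had 0, 0 and 3.29, and all Int and Par libraries had 0. The same Lep library also held the most Sprr2e (25.6), Sprr2h (20.4), Sprr2k (8.95) and Ivl (5.11). It also held the most Ptprc, a leukocyte marker, with 21.7 normalized counts against 5.11 and 4.92 in the other Lep libraries. Some other markers were high in it too. The macrophage receptor Csf1r had 48.6 against 1.28 and 0.703 in the other Lep libraries, and the endothelial Cdh5 23.0 against 6.39 and 3.51. The monocyte marker Cd14 had 729 against 465 and 451, but it had 817 in BrM replicate 2. The leukocyte marker Cd68 had 208 against 238 and 125, and Cd3e was at 0 in all Lep libraries. The leukocyte markers summed to 581 to 1019 in Lep, 767 to 1000.0 in BrM, 5544 to 5981 in Int, nearly all of it Cd68, and 634 to 693 in Par, and the endothelial markers to 28.1 to 61.3 in Lep, 11.4 to 13.1 in BrM, 29.8 to 37.3 in Int and 21.2 to 27.0 in Par. The desmosomal Dsp had 109 in this library against 44.7 and 19.0 in the other Lep libraries, while Krt5, Krt6a and Krt14, keratins of basal and activated squamous cells, were at 0 in it. The fibroblast and pericyte markers summed to 3323 in Lep replicate 2 against 1577 and 2156 in the other Lep libraries. Other sums were lowest of the Lep libraries there. Simple epithelium had 3079 against 5463 and 8036, and neural and glial markers 317 against 1157 and 818. The terminal squamous markers, described below, had 26.8 against 76.7 and 94.2. Whether these values are related was not tested.

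**Figure D4:**
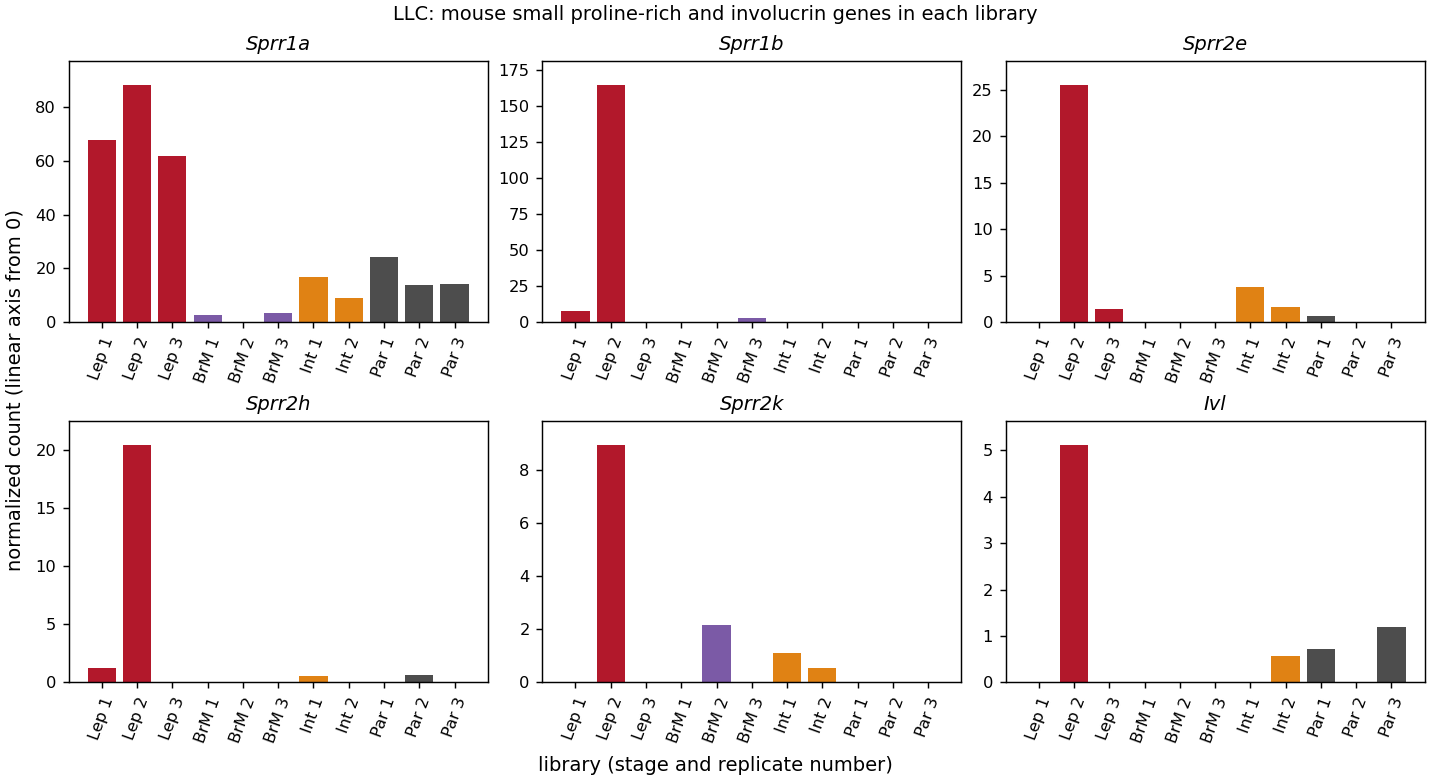
Normalized counts (linear axis from 0) of Sprr1a, Sprr1b, Sprr2e, Sprr2h, Sprr2k and Ivl in the 11 LLC libraries, 1 bar per library in the order Lep, BrM, Int and Par. Sprr1a is high in all 3 Lep libraries, whereas the other 5 genes peak in Lep replicate 2, Sprr1b at 165.

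How alike the members were was described by Pearson's r with the mean of the z-scored log2 levels of the tested members, over the 10 libraries of a model. Libraries of 1 group share their culture, and each member is part of the mean, so r is given with no p. In HCC1954 r was 0.995 for SPRR2D, 0.986 for SPRR2A, 0.980 for CALML5 and 0.971 for SPRR3, but 0.697 for TGM1, 0.467 for IVL and 0.456 for CASP14. In PC9 it was highest for SPRR3 (0.970) and lowest for IVL (0.501) and TGM1 (0.338), while CASP14 had 0.891. The genes outside the list with the most similar profile were INPP1, C5orf15 and PANK3 in HCC1954 (r of 0.994, 0.994 and 0.993, with 324 of 15551 genes above 0.95) and ATP6V1C2, KIFC2 and SCNN1B in PC9 (0.979 each, with 33 of 14467 above 0.95). INPP1 averaged 1113 normalized counts in Lep, 170 in BrM, 482 in Int and 259 in Par in HCC1954, and SCNN1B 291 in Lep, 24.6 in BrM, 95.2 in Int and 38.9 in Par in PC9.

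The label of the set was checked against squamous markers. Of the markers of late terminal differentiation, LOR (loricrin) was at most 1.08 in any HCC1954 library and 0 in all PC9 libraries, and KRT1 was at most 4.20 in HCC1954 and 1.22 in PC9. FLG (filaggrin) had 70.4, 55.1 and 66.3 normalized counts in HCC1954 Lep against 26.3, 30.8 and 23.7 in Par. KRT13, a keratin of moist squamous linings, had 3102, 2923 and 2823 in HCC1954 Lep against 715, 588 and 515 in Par (log2 fold change 2.29 ± 0.19, adjusted p = 7.0e-08, limma). KRT10, a suprabasal keratin, had 1820, 1979 and 1963 in HCC1954 Lep against 1528, 1567 and 1521 in Par, and KRT4, a keratin of moist linings, had 80.9, 108 and 90.01 against 634, 690 and 643. All 6 terminal squamous markers summed to 4944 to 5073 in Lep, 2991 to 3042 in BrM, 5827 to 5898 in Int and 2704 to 2907 in Par of HCC1954, and to 1888 to 2045 in Lep, 565 to 631 in BrM, 1457 to 1473 in Int and 780 to 924 in Par of PC9. LOR and KRT1 were thus at or near 0 in HCC1954 and PC9, while the sum was higher in Lep than in Par of these models. In PC9 FLG was called lower in Lep than in Par. The sum was lower in Lep (2974 to 3057) than in Par (3238 to 4205) of MDA-MB-231. In LLC, with 5 of the markers listed, it was 26.8 to 94.2 in Lep and 89.2 to 117 in Par, with overlap. In HCC1954 Lep the sum was mostly KRT13 and KRT10, and KRT4 was lower in Lep than in Par.

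Other genes of squamous differentiation, taken from 8 lists of 155 symbols chosen by function, were also tested. These lists, like the members, were chosen with earlier results of these tables known, so their counts and adjusted p-values are not independent evidence. In HCC1954 Lep against Par 52 of 123 tested were called higher and 13 lower, where 13% of all tested genes were called higher and 13.8% lower, with a median log2 fold change of 0.83 against -0.02 over all tested genes. In PC9 29 of 101 were called higher and 8 lower, where the shares over all genes were 6.65% and 8.49%, with a median of 0.55 against 0.02. In MDA-MB-231 0 of 73 were called with limma, where 22 had an unadjusted p below 0.05, DESeq2 called 7 and edgeR 0; in LLC 14 of 58 were called higher and 7 lower, with 8% and 12.3% of all genes. In HCC1954 BrM against Par 20 of 123 were called in each direction, where 9.63% of all tested genes were called higher and 14% lower, and in PC9 BrM against Par 6 were called higher and 21 lower, with 4.62% and 3.1% of all tested genes in those directions.

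Here and in the list paragraphs below, counts of genes that rose or fell are of genes past the call rule. Genes not counted may have changed by less. Among other envelope precursors 8 of 12 tested rose and 1 fell in HCC1954 Lep against Par, with a median log2 fold change of 1.38. SPRR2E, another small proline-rich gene, had 408, 423 and 383 normalized counts in Lep against 17.6, 17.8 and 7.91 in Par (log2 fold change 4.80 ± 0.27, adjusted p = 1.4e-09, limma). LCE3D, a late envelope gene, had 24.6, 49.7 and 28.8 in Lep against 0, 0 and 1.32 in Par. HRNR, a filaggrin relative, fell by 2.05 on the log2 scale (adjusted p = 4.1e-05, limma). In PC9 2 of 7 rose and 2 fell, and the median log2 fold change was below 0, at -0.52. CDSN (corneodesmosin) rose by 1.80 and EVPL (envoplakin) by 1.04, which was 0.87 and not called without Lep replicate 2. FLG and HRNR fell by 2.98 and 2.40.

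Of 21 tested transglutaminases, proteases and deiminases 8 rose and 1 fell in HCC1954, with a median of 0.79. TMPRSS11A, a relative of TMPRSS11D, had 151, 122 and 153 normalized counts in Lep against 3.29, 2.37 and 3.95 in Par, and KLK13, a kallikrein protease, had 61.0, 74.6 and 65.0 against 2.19, 1.18 and 0. KLK6, another kallikrein, fell by 3.01 on the log2 scale (adjusted p = 9.2e-12, limma). In PC9 4 of 16 rose, with a median of 0.73, among them PADI1, a peptidylarginine deiminase, by 2.09 and the kallikrein KLK10 by 2.01. Protease inhibitors rose in 7 of 13 in HCC1954 (median 2.12) and in 8 of 12 in PC9 (median 1.21), with 1 lower in each. SERPINB4, a squamous cell carcinoma antigen, had 54149, 57154 and 48997 in HCC1954 Lep against 1768, 1747 and 1747 in Par, and 405 and 142 in PC9 Lep against 19.6, 17.1 and 9.45 in Par. Its near copy SERPINB3 rose by 4.06 ± 0.07 in HCC1954 and 3.25 ± 0.37 in PC9, and reads of this pair may have been split uncertainly. CST6 (cystatin E/M) fell by 6.36 in HCC1954.

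Of 24 tested transcription factors of squamous differentiation 8 rose and 1 fell in HCC1954 (median 0.80), and 2 rose and 2 fell of 22 in PC9 (median 0.33). MAF, a factor of keratinocyte differentiation, had 1109, 1104 and 1079 normalized counts in HCC1954 Lep against 42.8, 36.7 and 25.0 in Par (log2 fold change 4.97 ± 0.21), and PRDM1 rose by 2.94 ± 0.10. TP63, the master factor of squamous lineage, named here after its values were seen, had 29911, 27113 and 27815 in Lep, 6460.2 and 6587 in BrM, 12157 and 15646 in Int, and 8215, 7961 and 8444 in Par of HCC1954. Its log2 fold change was 1.78 ± 0.07 in Lep against Par (adjusted p = 2.8e-11, limma). In PC9 TP63 had 118 and 46.0 in Lep against 34.3, 29.3 and 47.3 in Par, overlapping groups whose call (1.01 ± 0.39, adjusted p = 0.036, limma) was lost under 8 alternatives. HOPX, a homeodomain protein without DNA binding, fell by 2.69 in HCC1954 and rose by 2.79 in PC9, where Lep replicate 2 held 58.5 and replicate 1 8.07, and it was not called without replicate 2 (1.43). Whether HOPX differed between the models was not tested.

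The AP-1 list, whose dimers bind the element capitalised in the promoters above, held 9 tested genes, of which 4 rose and 2 fell in HCC1954 and 3 rose and 1 fell in PC9. FOSB rose by 2.36 ± 0.17 in HCC1954 and by 2.35 ± 0.34 in PC9. FOS had 337, 282 and 236 normalized counts in HCC1954 Lep against 743, 539 and 684 in Par, a log2 fold change of -1.20 ± 0.23, but 6464 and 3918 in PC9 Lep against 581, 729 and 1148 in Par (2.68 ± 0.29). ATF3 rose by 2.01 and BATF fell by 1.09 in HCC1954, and FOSL2 fell by 1.18 in PC9.

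Squamous keratin and desmosome genes rose in 7 and fell in 2 of 20 in HCC1954. KRT14, the basal keratin, had 40529.6, 37881 and 38320.0 normalized counts in Lep, 77.7 and 77.2 in BrM, 1355 and 7755 in Int, and 1052, 1048 and 1078 in Par, and DSG3 (desmoglein 3) had 1074, 975 and 838 in Lep against 8.78, 7.11 and 3.95 in Par. KRT4 and KRT78 fell by 2.81 and 2.62. In PC9 3 of 17 rose and 1 fell: KRT13 rose by 4.19 ± 0.22 and KRT17 by 4.17 ± 0.44, whereas KRT6A changed by -1.03, a call lost under 7 alternatives. Lipid barrier genes rose in 3 and fell in 2 of 11 in HCC1954, where CERS3, a ceramide synthase of very long chains, had 34.0, 31.4 and 37.5 in Lep against 2.19, 0 and 0 in Par, and rose in 3 and fell in 1 of 9 in PC9. Suprabasal secreted and surface proteins rose in 7 and fell in 3 of 13 in HCC1954 and rose in 4 of 9 in PC9. S100A7 (psoriasin) had 163929, 171432 and 164328 in HCC1954 Lep against 12991, 13811 and 12679 in Par, and S100A8 had 16835 and 19146 in PC9 Lep against 1350.3, 1615 and 1318 in Par. EPHX3, an epoxide hydrolase, fell by 5.80 in HCC1954.

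**Figure D5:**
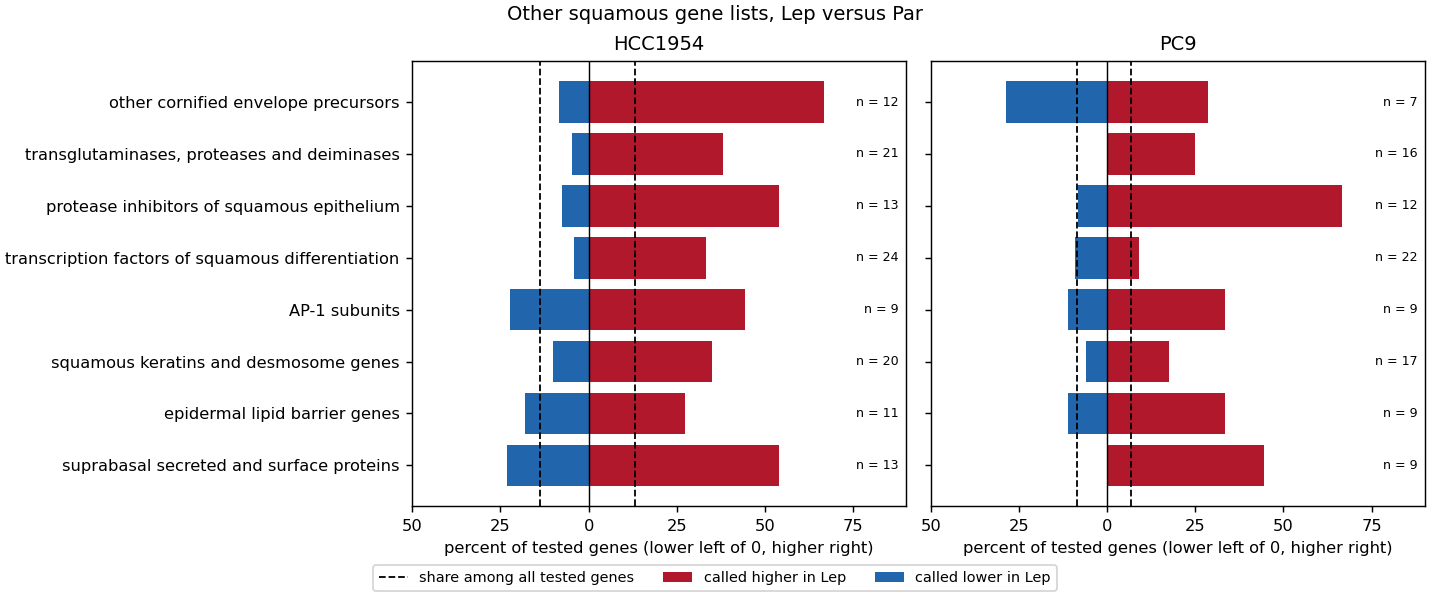
Percent of the tested genes of 8 squamous gene lists called higher (right of 0) and lower (left) in Lep against Par, for HCC1954 and PC9; n is the number tested and dashed lines mark the shares among all genes tested (13% higher and 13.8% lower in HCC1954, 6.65% and 8.49% in PC9). Protease inhibitors have among the longest bars to the right in both models (7 of 13 and 8 of 12), whereas other precursors do so in HCC1954 (8 of 12) but not in PC9 (2 of 7).

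Sums of markers of other cell states also differed between the groups of HCC1954. None had the full order of the small proline-rich genes, but the fibroblast and pericyte sum was likewise highest in Lep and lowest in BrM. The 8 markers of simple epithelium summed to 121011 to 125276 normalized counts in Lep, 157212 to 157659 in BrM, 175908 to 187556 in Int and 285378 to 289902 in Par. KRT19 had 322, 356 and 396 in Lep against 43296, 43049 and 42800.4 in Par, and KRT8 fell by 2.21 on the log2 scale. In PC9 the same sum ran the other way, 530260 to 566912 in Lep, 424650 to 482293 in BrM, 576641 to 583163 in Int and 273853 to 291718 in Par. The 7 leukocyte markers of HCC1954, mostly CD68, summed to 2491 to 2769 in Lep, 1021 to 1058 in BrM, 1061 to 1328 in Int and 2907 to 2975 in Par, with PTPRC at most 4.32 in Lep. The 6 fibroblast and pericyte markers summed to 1283 to 1329 in Lep, 499 to 511 in BrM, 515 to 689 in Int and 715 to 763 in Par, nearly all of it COL1A1, with COL1A2 at 0 in every library. The 4 endothelial markers summed to 617 to 684 in Lep, 4920.5 to 4930 in BrM, 757.96 to 797 in Int and 883 to 967 in Par, and the 6 neural and glial markers, nearly all MBP, to 2750.3 to 2949.6 in Lep, 3363 to 3396 in BrM, 3387 to 3617 in Int and 3060.4 to 3120.3 in Par. In PC9 the endothelial sum, mostly PECAM1 and CDH5, was 842 to 1140.1 in Lep, 267 to 285 in BrM, 882 to 910.4 in Int and 267 to 314 in Par, so it was high in the groups where CASP14 and CALML5 were high. The leukocyte sum of PC9 was 3369 to 4693 in Lep, 2295 to 2469.6 in BrM, 3055 to 3206 in Int and 3175 to 3319 in Par. It was thus highest in Lep and lowest in BrM, with Int and Par overlapping, as for SPRR1B. The fibroblast and pericyte sum of PC9 was 479 to 642 in Lep, 683 to 817 in BrM, 532 to 614 in Int and 369 to 445 in Par. The neural and glial sum was 906 to 956 in Lep, 1964 to 2199 in BrM, 1002 to 1059 in Int and 1618 to 1755 in Par. The part of these shifts in the results was not tested.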

How the data were processed

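For each model the authors deposited a table of gene symbols with normalized counts, a signal unit without whole numbers. Per the submitters' processing notes FastQC 0.11.3, HTSeq 0.5.4 and DESeq2 were used with the builds hg19 (GRCh37) and mm10 (GRCm38). The aligner and the counting options are not given in the sources used here. Per the labels' protocols, 500 ng of RNA went into TruSeq RNA v2 libraries, a kit that does not mark strand, read paired-end on a Hi-Seq instrument (75 bases in MDA-MB-231, otherwise 50 bases), so reads of overlapping antisense genes cannot be told apart. In each library 100% of the values came out as whole multiples of a single step (tolerance 0.01), which gave back the reads.

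Genes reaching 10 normalized counts in 2 or more libraries of their table were fitted with limma 3.58.1 (trend, R 4.3.3) on log2(normalized count + 1), with all libraries of a model in 1 fit and p-values adjusted over all tested genes; fold changes on this scale understate those of low genes. Alternatives were 10 added before the logarithm, no filter, quantile normalization, edgeR 4.0.16 and DESeq2 1.42.0 on recovered reads, the 2 groups alone, the replicate number as a block, and leaving out each library. Ratios on 3 reads or fewer have exact 95% intervals, and a count of 0 allows up to 3 reads; both cover counting error only. The fit was tested on simulated data. Motifs were searched in RefSeq promoter windows of GRCh38.p14, a build other than that of the tables, and shared windows of 50 bases in GENCODE transcripts. The members and the gene lists were chosen with earlier results of these data known. By rule, the named genes are the members, per list the 2 called genes that rose most and the 2 that fell most in Lep against Par, and the 3 genes most correlated with the members' mean. Genes of the marker lists, TP63 and the mouse Sprr genes other than Sprr1a are named outside this rule. Replicate numbers were taken to pair samples where, with 3 or more pairs, every correlation of deviations was above 0.1. This held for BrM and Par of MDA-MB-231 (0.500, 0.265 and 0.231) and for no other comparison reported. There BrM replicate 2 correlated more with Par replicate 3 (0.337) than with Par replicate 2 (0.265). The rule did not look at unlike numbers, so it cannot show that the numbers pair samples.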

Additional observations from a re-analysis of the deposited data

Results flagged for a closer look

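TGM1 moved in opposite directions in different models under the same comparison, with every library of the first group on the same side of the second group within a model. In BrM against Par its log2 fold change was 0.29 in PC9 and -3.05 in HCC1954. In Int against Par it was 1.21 in HCC1954 and -0.66 in MDA-MB-231. In Lep against Int it was 0.70 in MDA-MB-231 and 0.34 in PC9, against -0.45 in HCC1954. The differences between models were not tested, because the tables were normalized separately, and of these values -3.05 and 1.21 in HCC1954 were past the call rule.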

How the results depend on the processing

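Of 1207 values of members under alternatives, 41 changed their side of the call rule and no called value reversed. Of 1107 values of other named genes, 42 lost their call and none reversed. In HCC1954 the member counts of both directions together stayed within 1.5 times under every alternative run. By direction, those lower in BrM against Par numbered 3 in place of 5 with 10 added before the logarithm and with quantile normalization, and those higher 2 in place of 1 with quantile normalization and without Par replicate 2. With 10 added before the logarithm, PC9 members past the call rule numbered 1 in BrM against Par (2 as reported) and 3 in Int against Par (5). In a fit of the 2 groups alone, PC9 Lep against Int gave 0 members (3) and 0 list genes (4). Leaving out 1 library gave 3 to 4 members in PC9 Int against Par (3 without Int replicate 2), 2 to 5 members and 2 to 12 list genes in PC9 Lep against Int (5 and 12 without Lep replicate 1, 9 list genes without Lep replicate 2 and 2 without Int replicate 2), and 0 to 1 in LLC Lep against Int (0 without Int replicate 2). The cause of these shifts was not tested.

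In MDA-MB-231 list counts were unstable. Lep against Par gave 7 with DESeq2 (0 as reported) and 0 to 1 leaving out 1 library. BrM against Par gave 3 with DESeq2, 0 with the 2 groups alone and 0 to 2 leaving out 1 library (1). Int against Par gave 4 with the 2 groups alone and 0 to 26 leaving out 1 library (16; 0 without either Int library, 26 without Par replicate 1, 2 without Par replicate 2 and 8 without Par replicate 3). Lep against Int gave 8 with DESeq2 and 0 to 5 leaving out 1 library (0). Lep against BrM gave 8 with DESeq2, 0 with edgeR, with no filter and with the 2 groups alone, and 0 to 1 leaving out 1 library (1).

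Apart from BrM and Par of MDA-MB-231, where the block left 0 members and 1 list gene called, as without it, the replicate numbers were not taken to pair samples. Over all groups, same-numbered libraries had deviations with median correlations of -0.0106 in HCC1954, 0.0634 in MDA-MB-231, 0.0346 in PC9 and 0.0135 in LLC, and a library correlated best with its own number in 2 of 14, 8 of 14, 6 of 14 and 9 of 24 cases in that order of models. With the replicate block, members past the call rule in Lep against Par stayed 8 in HCC1954 and 6 in PC9, and MDA-MB-231 list genes numbered 1 in Lep against Int and 0 in Lep against BrM.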

Other observations

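In LLC, 14 of 58 tested squamous list genes were called higher and 7 lower in Lep against Par. Among all tested genes 8% were called higher and 12.3% lower. Sox2, a stem cell factor, had 89.5, 144 and 35.1 normalized counts in Lep against 4.98, 3.98 and 0 in Par (log2 fold change 4.65 ± 0.72, adjusted p = 2.8e-04, limma). Grhl2, an epithelial transcription factor, had 65.2, 62.6 and 34.4 in Lep against 6.40, 3.98 and 4.76 in Par. The desmosomal plakin Dsp had 44.7, 109 and 19.0 against 7.11, 1.99 and 2.38, whereas Jup, which encodes plakoglobin, had 7.67, 5.11 and 5.62 against 734, 583 and 530.3 (-6.44 ± 0.31). The membrane protease St14 (matriptase) rose by 3.27 and the antiprotease Slpi by 2.40, and Krt10 and Tgm2 fell by 4.08 and 2.12. Simple epithelium markers summed to 3079 to 8036 in Lep and 15469 to 17409.5 in Par, and Krt5 and Krt6a were at 0 in all Lep libraries.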
